A study of Mus musculus with 30 samples.

Results

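MicroRNA (miRNA) levels in the abdominal aorta of mice fed a high-fat diet were compared with those in the mesenteric fat of mice on the same diet. The samples were the 3 titled as aorta on the high-fat diet (AA-HFD) and the 5 titled as mesenteric fat on that diet (MAT-HFD), 8 of 30 in the series, and the comparison ran over all 566 mouse miRNA probes of 626 probes. All 8 came from male C57BL6 mice, an inbred laboratory strain, that ate a diet with 60% fat freely from 4 to 20 weeks of age, so none of the 8 came from a chow-fed mouse. Aorta and mesenteric fat of mice on normal chow (NCD, 3 and 5 samples) were used to set the tissue difference on each diet side by side. Both are whole tissues. The labels do not say that samples of a group came from separate animals, so the p-values speak only to the spread among the deposited samples, and a lower level of a cell type's miRNA can mean fewer such cells or less RNA per cell, which cannot be told apart in bulk tissue.

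miRNAs are short RNAs, cut from hairpin precursors, that pair with messenger RNAs mainly through their seed, the bases near the 5′ end, and lower the output of those messengers. The wall of the aorta is mostly smooth muscle between an endothelium and an outer connective layer that borders fat. Mesenteric fat lies around the vessels of the gut and holds adipocytes, blood vessels, immune cells and, in places, lymph nodes, and both tissues are remodelled in diet-induced obesity. The miRNA pair miR-143 and miR-145 keeps smooth muscle contractile, miR-126 is the classic endothelial miRNA, and miR-142, miR-150 and miR-223 are made by blood-borne cells.

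The following mature sequences are shown because the results below set them side by side, as members with the same seed or as the 2 arms of a hairpin. They are RefSeq entries on build GRCm38.p6, 5′ to 3′, with the seed (bases 2 to 8) in capitals. Where a probe's name gives no arm, the commonly used arm was taken.
miR-193: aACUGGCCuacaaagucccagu
miR-193b: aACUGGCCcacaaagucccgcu
miR-30a: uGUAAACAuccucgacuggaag
miR-30e: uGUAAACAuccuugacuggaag
miR-30c: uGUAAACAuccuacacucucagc
miR-10a: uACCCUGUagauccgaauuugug
miR-10b: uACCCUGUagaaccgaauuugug
let-7d: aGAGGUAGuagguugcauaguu
let-7f: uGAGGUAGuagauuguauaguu
miR-15b: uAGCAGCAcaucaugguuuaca
miR-322: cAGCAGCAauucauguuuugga
miR-221: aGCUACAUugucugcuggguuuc
miR-222: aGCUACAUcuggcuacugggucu
miR-335-5p: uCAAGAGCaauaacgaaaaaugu
miR-335-3p: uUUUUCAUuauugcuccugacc
Counted from the 5′ end, miR-193b differs from miR-193 by U9C, A20G and G21C, miR-10b from miR-10a by U12A alone, miR-30e from miR-30a by C13U alone, and let-7d from let-7f by U1A, A12G and U16C. Members this alike may be read in part by one another's probes, and the extent of that was not tested.

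As deposited, the aorta held less miRNA signal, spread over fewer miRNAs, than the fat. The summed mouse miRNA signal was 221448, 262482 and 282170 in the 3 aortas and 311130, 496704, 392350, 416881 and 343088 in the 5 fat samples. Every aorta was below every fat sample, and the fat mean was 1.52-fold that of the aorta on the log scale (exact permutation test, two-sided, p = 0.0357, the smallest that 3 against 5 samples allow). These totals include a factor per sample, described under the processing. Before it the totals overlapped, at 148873 to 435655 in aorta and 344361 to 496456 in fat, and those were not tested. The detection limit, 29.8 signal units, was set from the negative controls (their mean with 2 SD added). Over it were 97 to 100 mouse probes in aorta (98.7 ± 1.53, SD, n = 3) and 142 to 172 in fat (159 ± 11.3, n = 5; exact permutation test, two-sided, p = 0.0357, again the smallest possible). The 10 most abundant miRNAs of a sample took 71.2% to 72.6% of its signal in aorta and 48.7% to 62.1% in fat. In each aorta 4 miRNAs made up 50% of the signal, against 7 to 11 in fat.

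**Figure D1:**
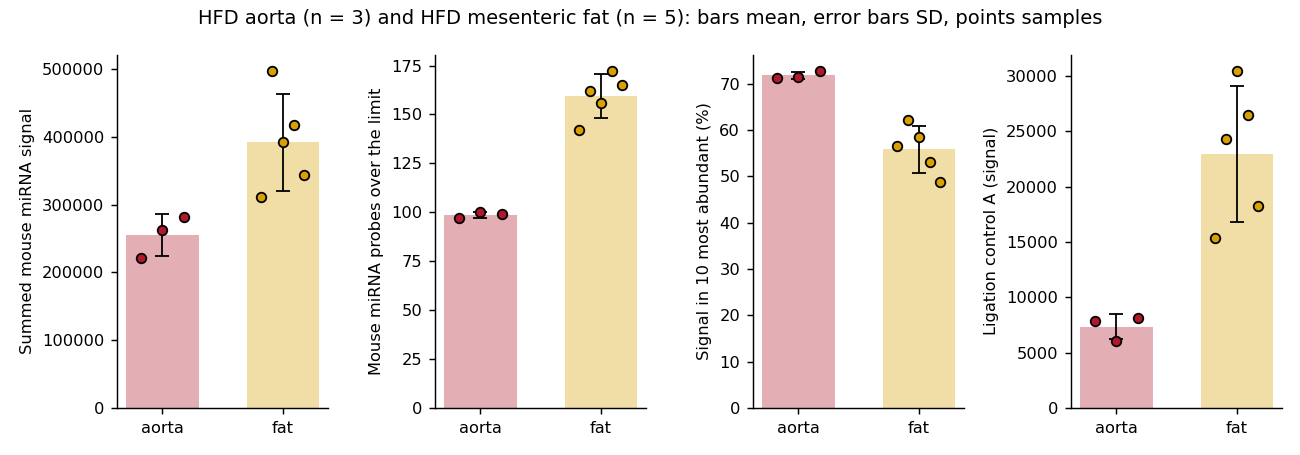
Summed mouse miRNA signal as deposited, number of mouse miRNA probes over the detection limit, percentage of the signal in the 10 most abundant miRNAs and signal of ligation control A in HFD aorta (3 points) and HFD mesenteric fat (5 points). Bars are means, error bars SD. In all 4 panels no aorta overlaps any fat sample: the aortas are lower in total signal, probes over the limit and ligation control, and higher in the share of the 10 most abundant.

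On HFD a control of the assay moved with the tissue. Ligation control A, by its name a positive control of the ligation step, read 6045 to 8159 in aorta and 15316 to 30418 in fat. The brightest of the other positive controls went the other way, with 34590 to 41997 in aorta and 22493 to 32664 in fat. On chow, ligation control A read 50714 in aorta replicate 1, above every fat sample, and 4295 and 5946 in aorta replicates 2 and 3. The labels also give a sample letter that differs between the tissues, and what it stands for was not established. Any step of the assay that went with tissue cannot be told apart from it. The part of assay or tissue in the lower aortic signal was not tested. Each miRNA was therefore compared both as signal and as a percentage of its sample's summed mouse miRNA signal, here called its share, in which any change common to all miRNAs of a sample cancels. The share difference of a miRNA is its signal difference plus 0.61 on the log2 scale.

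By signal, nearly all differences ran toward fat. Of 566 probes, 165 lay over the limit in at least 3 of the 8 samples and were tested with limma. At an adjusted p (Benjamini-Hochberg) under 0.05, 130 of them (78.8%) differed, 5 higher in aorta (3.03%) and 125 lower (75.8%), and the median log2 difference, aorta minus fat, was -1.96. As shares, 116 differed (70.3%), 13 higher (7.88%) and 103 lower (62.4%), with a median of -1.36. The direction of a moderate difference depends on the scale. Of the 125 lower by signal, 22 were not called as shares, and 8 miRNAs not called by signal had higher shares in aorta, but none was called in opposite directions. Other scalings of the signal balanced the split. Centring each sample on its median, which must even it out, called 48 miRNAs higher in aorta and 57 lower. Under quantile normalization 54 were higher and 45 lower. With the 100 most abundant miRNAs as the reference there were 46 and 61, and with the ligation controls 25 and 51. Between 33 and 43 of the 130 signal calls changed sign under these 4 scalings. By signal the aortic range lay wholly above that of fat for 6 tested miRNAs (3.64%) and wholly below it for 115 (69.7%), and by share for 16 (9.70%) and 95 (57.6%).

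Many of the lower miRNAs were not detected in aorta. All 3 aortas were below the limit for 55 of the 165, and 36 of these were over it in all 5 fat samples. These 55 thus entered the counts through fat alone. No tested miRNA was below the limit in all fat samples, but the filter leaned toward fat. A miRNA detected in fat alone was tested with 3 of 5 samples over the limit, one detected in aorta alone only with all 3. For miRNAs below the limit in all samples of a tissue a fold is given as a lower bound, with every value under the limit set to 29.8. Unless stated otherwise, the p beside such a bound is from the fit with values as deposited. List medians use that fit too, so values under the limit enter them as deposited. Among the 82 miRNAs over the limit in all 8 samples, 9 had a higher share in aorta, 42 a lower share and 31 did not pass, with a median log2 share difference of -0.71.

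**Figure D2:**
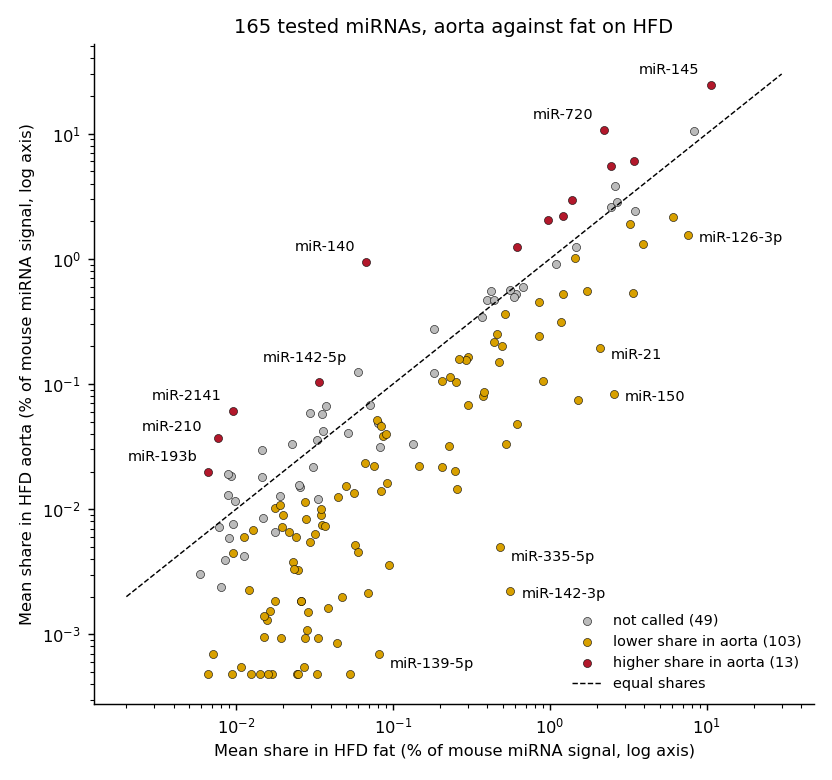
Mean share of the mouse miRNA signal in HFD aorta (vertical axis, %, log scale) against HFD fat (horizontal axis, %, log scale) for the 165 tested miRNAs, coloured by limma call at adjusted p under 0.05. The 13 miRNAs with a higher share in aorta lie above the dashed line of equal shares, the 103 with a lower share below it, and the lowest aortic values sit at the table's floor.

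The smooth muscle pair, miR-145 and miR-143, took larger shares of the aortic signal. miR-145, the most abundant miRNA of the aorta, held 23.4%, 25.5% and 24.2% of the signal in the 3 aortas and 7.50%, 14.99%, 18.02%, 8.90% and 3.43% in the 5 fat samples, where it was also the most abundant miRNA by mean share. All aortas were above all fat samples in share. Its signal overlapped, with 51877, 67013 and 68276 in aorta and 23334, 74464, 70704, 37101 and 11773 in fat (limma adjusted p = 0.182). The share was 2.68-fold higher in aorta (log2 1.42 ± 0.46, SE, adjusted p = 0.0117). miR-143, made from the same precursor transcript, had shares of 4.08%, 6.26% and 6.08% in aorta and 1.32%, 3.57%, 3.60%, 2.54% and 1.24% in fat, a 2.42-fold difference (adjusted p = 0.00464). Neither was called by signal, and both were after median centring (median log2 difference 2.62). Together they made 27.5% to 31.8% of the aortic and 4.67% to 21.6% of the fat signal.

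The fat samples differed widely from one another in muscle miRNAs. miR-145, miR-143 and miR-133a ranked the 5 fat samples in the same order by share, replicate 3 highest, then 2, 4, 1 and 5. miR-133a, a regulator of muscle differentiation, held 0.114%, 0.0919% and 0.108% in aorta and 0.0179%, 0.0505%, 0.0586%, 0.0335% and 0.00737% in fat. Its share was 3.89-fold higher in aorta (limma adjusted p = 0.00955), a call lost with the replicate number as a block (0.052). miR-1, its partner in striated muscle, had 492, 736 and 898 signal units in aorta and 112, 1328, 1539, 644 and 202 in fat. Its ranges overlapped, and its share did not pass (log2 1.08 ± 0.64, adjusted p = 0.14). The other striated muscle markers on the array were not among the tested miRNAs.

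miR-140 differed most of those higher in aorta, on either scale. Best known from cartilage, it is encoded within the bounds of Wwp2, a ubiquitin ligase gene, at chr8:107551244-107551313 (GRCm38.p6). Its signal was 1600.4, 2965 and 2776 in aorta and 258, 279, 173, 302 and 282 in fat. Every aorta was far above every fat sample. The difference was 9.26-fold by signal (log2 3.21 ± 0.31, SE, limma adjusted p = 2.01e-07) and 14.1-fold by share (adjusted p = 2.1e-08). It is a member of a mesenchymal and cartilage list, in which 4 of 11 tested members had higher shares and 1 a lower share. The 4 were miR-140, miR-199a-3p and the smooth muscle pair, miR-143 and miR-145, which this list also holds. Of all tested, 7.88% had higher and 62.4% lower shares. The list's median log2 share difference was 0.87, beside -1.36 over all tested. By signal 1 of these 11 was higher and 3 were lower, and after median centring 8 were higher and 1 lower.

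miR-720, miR-2141, miR-210 and miR-193b were the other miRNAs higher in aorta on both scales. miR-720, now known as a transfer RNA fragment, was the second most abundant species of the aorta at 10.6%, 10.05% and 11.6% of the signal, against 3.35%, 1.26%, 2.04%, 2.35% and 2.06% in fat. That is 5.10-fold by share (limma adjusted p = 0.00063) and 3.35-fold by signal (adjusted p = 0.00658), with no overlap on either scale. miR-2141 read 187, 78.6 and 196 in aorta and 17.6, 20.6, 56.3, 39.9 and 47.2 in fat, where 3 of 5 samples were over the limit. The signal ratio was 3.62-fold once dimmer values were raised to the limit.

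miR-210, the miRNA most strongly induced by low oxygen, read 59.5, 105 and 123 in aorta and 14.9, 27.6, 39.7, 47.8 and 22.1 in fat. Every aorta exceeded every fat sample, and 2 fat samples were over the limit. Its share was 4.85-fold higher in aorta, or 4.03-fold once dimmer values were raised to the limit (limma adjusted p = 4.26e-06). miR-193b, linked to brown fat formation, read 38.7, 55.7 and 59.7 in aorta and 17.6, 46.6, 24.2, 35.95 and 11.9 in fat. Its signal ranges overlapped and the signal call (adjusted p = 0.0304) was kept in 20 of 30 other settings, and lost with the replicate block (0.052). Its share ranges did not overlap, but only 2 fat samples were over the limit. The share was 3.08-fold higher in aorta (limma adjusted p = 0.000395), or 2.27-fold once dimmer values were raised to the limit. On the signal scale the latter was 1.49-fold and did not pass (adjusted p = 0.0624).

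Members of the miR-23, miR-27 and miR-24 clusters, which act in vessel growth, took larger shares of the aortic signal. Of 5 tested members 3 had higher shares and none a lower one, beside 7.88% and 62.4% of all tested. Their median log2 share difference was 0.83. By signal none of the 5 was higher and 1 was lower, and after median centring all 5 were higher. miR-23a held 5.92%, 5.88% and 6.26% in aorta and 2.52%, 2.91%, 3.79%, 4.21% and 3.80% in fat (1.78-fold, limma adjusted p = 0.00164). miR-27a, which restrains adipocyte differentiation, held 3.51%, 2.63% and 2.78% and 1.22%, 1.20%, 1.36%, 1.58% and 1.56% (2.15-fold, adjusted p = 0.001). The clusters lie apart in the genome, miR-23a and miR-27a on chromosome 8, miR-23b and miR-27b on chromosome 13 within the bounds of Aopep. miR-23b, from the latter, was 2.17-fold higher by share in aorta (adjusted p = 0.00464).

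The last higher shares were those of miR-199a-3p, a miRNA of mesenchymal cells, and miR-30c. miR-199a-3p held 2.44%, 2.13% and 2.01% in aorta and 1.12%, 0.927%, 1.19%, 1.42% and 1.42% in fat (1.82-fold, limma adjusted p = 0.00389). By signal miR-145, miR-143, miR-133a, miR-23a, miR-23b, miR-27a, miR-199a-3p and miR-30c did not pass, with log2 differences from 0.22 to 1.35. For these 8, the call thus rests on the scaling to the total.

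**Figure D3:**
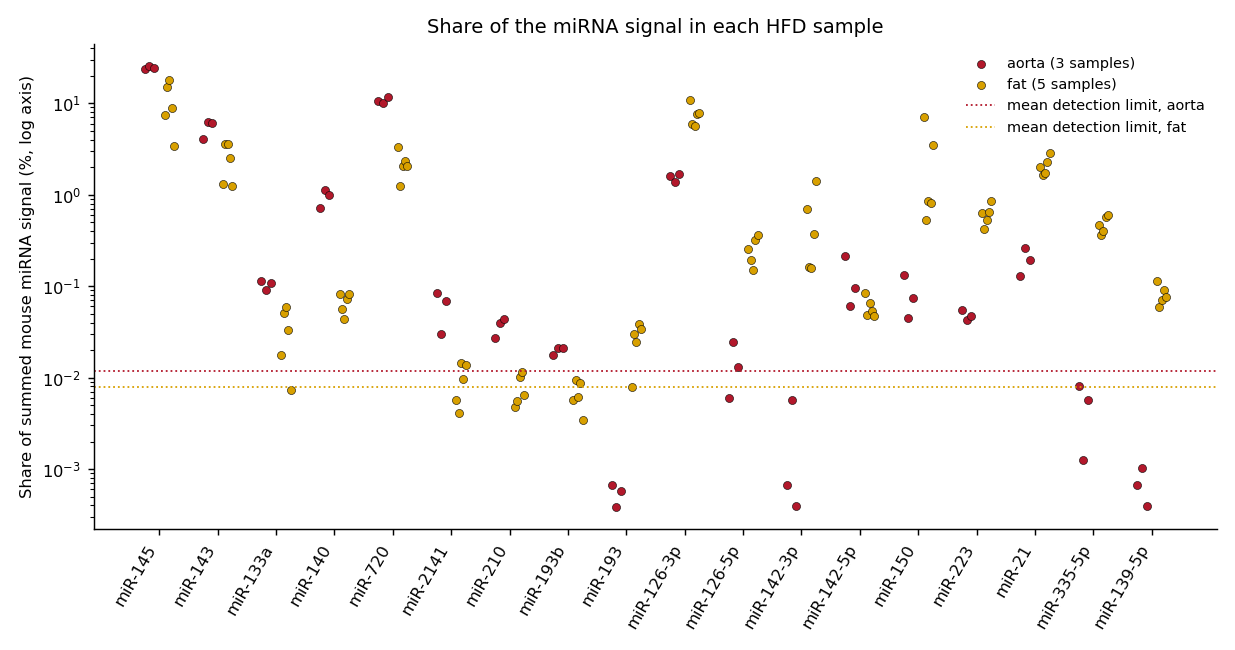
Share of the summed mouse miRNA signal (%, log axis) of 18 miRNAs in each HFD aorta (3 points) and HFD fat sample (5 points), with the mean detection limit of each tissue as a dotted line. The first 8 miRNAs are higher in aorta with no overlap, and the fat points of miR-145, miR-143, miR-133a and miR-150 spread widely.

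Endothelial miRNAs were lower in aorta. All 4 tested members of the list (miR-126-3p, miR-126-5p, miR-221 and miR-222) were lower on both scales. Of all tested, 75.8% were lower by signal and 62.4% by share. By share, the median log2 difference of the 4 was -4.26. Values under the limit entered it as deposited, which enlarged the differences of miR-221 and miR-222, undetected in aorta. With values so taken, all 4 were lower after median centring, quantile or top-100 scaling. With the ligation controls as the reference 3 were, and miR-126-3p did not pass (limma adjusted p = 0.12). miR-126-3p, the third most abundant miRNA of fat, read 3592, 3579 and 4712 in aorta and 33686, 29177, 22265, 32076 and 27113 in fat. No aorta came near the lowest fat sample, and its share was 4.78-fold lower in aorta (limma adjusted p = 4.46e-07). miR-126-5p, the other arm of that hairpin, read 13.4, 63.6 and 36.7 and 799, 953, 586, 1317 and 1258, 18.9-fold lower by share (adjusted p = 2.05e-07). The difference between the arms was not tested.

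miR-221 and miR-222, neighbours on the X chromosome that share a seed and act on growth of vascular cells, were below the limit in all aortas. miR-221 read 212, 421, 364, 430.2 and 427 in fat, so that it was at least 12.04-fold lower in aorta by signal and at least 7.91-fold by share. miR-222 was dimmer in fat, at 37.5, 96.7, 44.9, 77.5 and 80.2. It was at least 2.12-fold lower by signal and 1.39-fold by share, and the share call was lost with values set to the limit (limma adjusted p = 0.12).

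Of 8 tested leukocyte miRNAs, 7 were lower in aorta by signal, where 75.8% of all tested miRNAs were lower, and 6 by share, where 62.4% were. The median log2 share difference was -3.92, beside -1.36 over all. Under each of the 4 scalings that evened out the split 6 were lower, while 2 were higher under 3 of them and 1 with the ligation controls. miR-142-3p, found in all blood cell lineages, was below the limit in every aorta and read 2162, 802, 626, 1558 and 4852 in fat. It was at least 51.1-fold lower in aorta by signal and at least 33.6-fold by share (limma adjusted p = 1.23e-05). miR-142-5p, cut from the other side of the same hairpin on chromosome 11, read 476, 158 and 270.1 in aorta and 262, 241, 255, 223 and 160.1 in fat. Its ranges overlapped and its share did not pass (log2 0.89 ± 0.41, adjusted p = 0.0644). Whether the arms differ in their tissue difference was not tested.

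The remaining leukocyte markers were detected in aorta at low levels. miR-150, abundant in mature lymphocytes, read 290.0, 119 and 209.8 in aorta and 22178, 2658, 3321, 3405 and 12007 in fat. Fat replicates 1 and 5, the samples with the lowest miR-145 share, were the highest. Its share was 20.4-fold lower in aorta (limma adjusted p = 0.00019). miR-223, a miRNA of myeloid cells, read 120.5, 113 and 134 in aorta and 1946, 2103, 2067, 2710.0 and 2921 in fat, and varied little within each tissue. Its share was 12.4-fold lower (adjusted p = 5.86e-09).

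Other immune-linked miRNAs had lower aortic shares. miR-342-3p, encoded within the bounds of Evl on chromosome 12, was 19.5-fold lower by share (limma adjusted p = 8.84e-07). miR-146a, a brake on NF-kB signalling, was 14.3-fold lower (adjusted p = 4.02e-06), with 84.8, 66.6 and 101 in aorta against 2124, 1196, 1666, 1526 and 3192 in fat. miR-146b, which shares its seed, was below the limit in all aortas and at least 3.61-fold lower by signal. The summed share of the 4 leukocyte markers was 0.154% to 0.401% in aorta and 1.17% to 8.53% in fat.

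Red cell miRNAs were spread widely over the fat samples. Of 3 tested, 3 were lower in aorta by signal and 2 by share, beside 75.8% and 62.4% of all tested. Their median log2 share difference was -1.92. None passed after median centring, quantile or top-100 scaling, and 1 was lower with the ligation controls as the reference. miR-451 read 1419, 1680.1 and 891 in aorta and 6964, 57354, 2710.5, 6024 and 3414 in fat, with replicate 2 far above the other fat samples. Its share was 3.78-fold lower in aorta (limma adjusted p = 0.0186), a call lost without aorta replicate 3 (0.086), with the 8 HFD samples fitted alone (0.067) and without the 5 most abundant miRNAs in the total (0.092). Without fat replicate 2 it was 2.41-fold lower (adjusted p = 0.0122). miR-486 held 0.0490%, 0.0343% and 0.0157% in aorta and 0.0614%, 0.456%, 0.0515%, 0.0603% and 0.0375% in fat, again highest in fat replicate 2, and did not pass by share (adjusted p = 0.0753).

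Markers of epithelium and gut were near the limit. miR-200b, the only one of 5 epithelial markers over the limit in enough samples to be tested, overlapped between tissues (253, 88.3 and 146 in aorta, 78.2, 162, 183, 169 and 143 in fat, share adjusted p = 0.11 with limma), and the other 4 were below the limit in all 8 samples. Of 7 markers of intestine, liver and pancreas, all were below the limit in every aorta and 6 in every fat sample. The seventh, miR-194, read 69.1, 118, 68.7, 125 and 107 in fat and was at least 3.16-fold lower in aorta by signal.

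The miRNAs tied to adipocytes had a count of lower calls near that of all miRNAs. Of 17 tested, 13 had lower shares, beside 62.4% of all, and 3 higher ones (miR-210, miR-193b and miR-30c), with a median log2 share difference of -1.19, beside -1.36 over all tested miRNAs. By signal 13 were lower, beside 75.8% of all, and 2 higher, but after median centring 5 were lower and 5 higher and the median turned to 0.08. No member is made by adipocytes alone. A narrower set of 6 adipocyte markers (miR-103, miR-107, miR-148a, miR-193 and both arms of miR-335) was lower in all 6 on both scales. Of these, 3 were below the limit in all aortas. Not every signal call held under other scalings. That of miR-107 was lost with median centring (limma adjusted p = 0.059), quantile normalization (0.23) and the ligation controls (0.079), and that of miR-103 with the ligation controls (0.094). miR-148a, with a signal log2 difference of -1.81, lay near the median of the 17, which was -1.79 by signal. Median centring moves all miRNAs alike and turned that median to 0.08, so the difference of miR-148a all but vanished there. The summed share of the 6 was 0.527% to 0.721% in aorta and 1.80% to 2.76% in fat.

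miR-335-5p gave the largest lower bound. It is encoded within the bounds of Mest, an imprinted gene that rises in growing adipocytes, at chr6:30741299-30741396 (GRCm38.p6). It read 17.9, 3.31 and 15.9 in aorta, all below the limit, and 1469, 1811, 1582, 2354 and 2057 in fat. It was at least 61.3-fold lower by signal and at least 40.3-fold by share (limma adjusted p = 7.08e-08). The opposite arm, miR-335-3p, read 61.9, 68.7, 57.3, 71.5 and 48.8 in fat and at or near the floor in aorta. It was at least 2.05-fold lower by signal, and its share call was lost with values set to the limit (adjusted p = 0.093).

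miR-103 and miR-107, which share a seed and act on insulin sensitivity in mouse fat, were also lower. miR-103 read 156, 233 and 223 in aorta and 917, 1813, 1341, 1847 and 1439 in fat, 4.64-fold lower by share (limma adjusted p = 9.47e-07). miR-107 was over the limit in 1 of 3 aortas. It held 0.0333%, 0.0354%, 0.0354%, 0.0347% and 0.0359% in fat and was 6.11-fold lower by share in aorta (adjusted p = 0.00132), or 2.65-fold with values set to the limit and 2.70-fold without aorta replicate 1. miR-148a, which promotes adipocyte differentiation, held 0.446%, 0.614% and 0.499% in aorta and 0.971%, 1.01%, 0.977%, 1.66% and 1.48% in fat (2.30-fold, adjusted p = 0.000323).

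Of 4 tested miRNAs linked to fibrosis, 4 were lower in aorta by signal and 3 by share, beside 75.8% and 62.4% of all tested. Their median log2 share difference was -1.20, near the -1.36 over all, and after median centring 1 was lower, 1 higher and the median turned to 0.07. miR-21, raised in many inflamed and fibrotic tissues, read 289, 684 and 541 in aorta and 6198, 8100.4, 6811, 9573 and 9704 in fat. The ranges were far apart, and the share was 10.99-fold lower (limma adjusted p = 1.64e-07). The miR-29 members, which repress collagens and share a seed, were not all called. miR-29a was 2.95-fold lower by share (adjusted p = 1.13e-06) and miR-29b 1.80-fold (adjusted p = 0.0135, but 0.088 with the replicate block and 0.051 without aorta replicate 1), while miR-29c did not pass (log2 -0.21 ± 0.23, adjusted p = 0.411). miR-29a had the largest share of these members in both tissues.

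**Figure D4:**
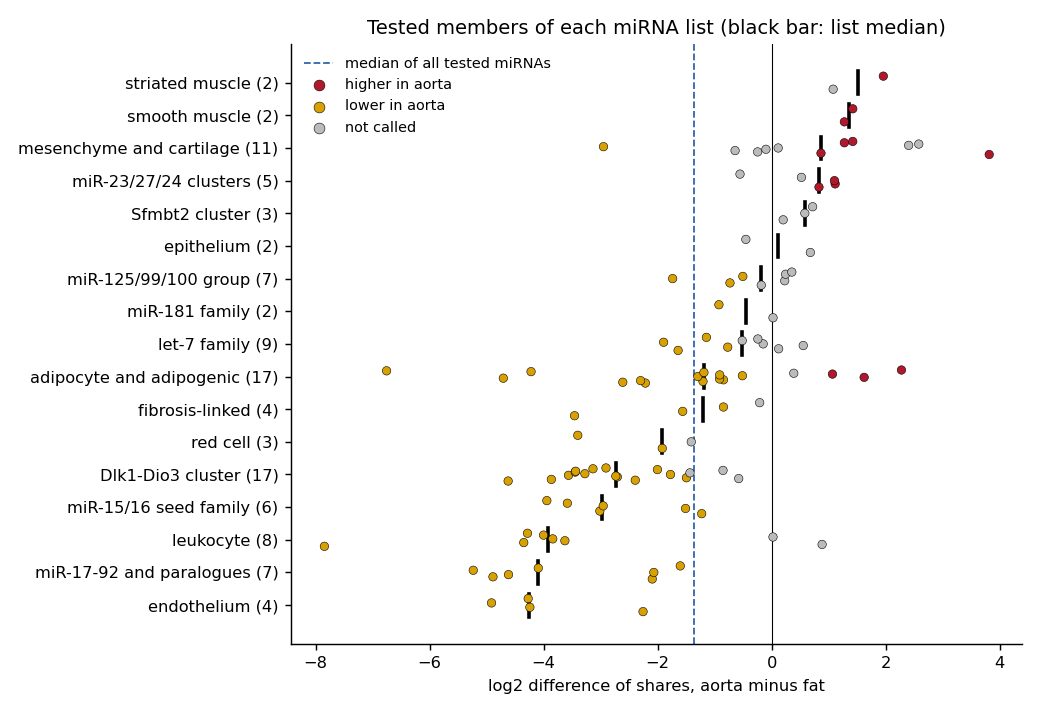
Log2 share difference, aorta minus fat (horizontal axis), of each tested member of 17 miRNA lists (tested members in brackets), coloured by limma call. Black bars are list medians and the dashed line the median over all 165 tested miRNAs, -1.36. Values under the detection limit entered as deposited. The lists run from striated and smooth muscle, at 1.52 and 1.35, to the endothelium at -4.26.

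Among miRNAs not tied to one cell type, several were detected in fat alone. miR-139-5p, encoded within the bounds of the phosphodiesterase gene Pde2a on chromosome 7, read 354, 291, 276, 379.8 and 260.4 in fat and no more than 2.71 in aorta. It was at least 10.4-fold lower in aorta by signal and at least 6.80-fold by share. Its p was the smallest of the comparison (limma adjusted p = 2.46e-11 by share), in the fit with aortic values at or near the floor as deposited. In the other settings the adjusted p by share was at most 5.49e-05. miR-34a, a target of p53, had fat values within a narrow band of 153, 172, 169, 176 and 171. It was at least 5.64-fold lower by signal and at least 3.70-fold by share. miR-2132 read 197, 125, 189.8, 180.2 and 293 in fat and was at least 6.37-fold lower by signal.

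The growth-linked miR-17-92 group and its paralogues were lower in aorta. All 7 tested members fell below fat on both scales, beside 75.8% of all tested by signal and 62.4% by share. Their median log2 share difference was -4.09, and 4 to 6 stayed lower with none higher under the scalings that evened out the split. Of these members miR-106b, miR-93, miR-19a and miR-19b were below the limit in all aortas and were tested through fat alone. The median thus rests on values under the limit in aorta. miR-106b and miR-93 are encoded side by side within the bounds of the replication gene Mcm7 on chromosome 5. miR-106b read 139.6, 444, 132, 285 and 380.4 in fat and was at least 8.23-fold lower by signal and at least 5.40-fold by share. miR-19a read 50.1, 95.7, 37.6, 200.0 and 242 in fat and was at least 3.27-fold lower by signal, but its share call was lost with values set to the limit (limma adjusted p = 0.13).

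The miR-15 and miR-16 seed family, which restrains the cell cycle, was lower in all 6 tested members on both scales (median log2 share difference -2.98), and in 4 of 6 after median centring. Of all tested, 75.8% were lower by signal and 62.4% by share. miR-16, among the most abundant miRNAs of fat, read 3741, 6382 and 6506 in aorta and 22236, 33456, 18306, 21275 and 23771 in fat, 2.85-fold lower by share (limma adjusted p = 6.05e-05). miR-15b read 256, 297 and 257 and 4198, 4573, 2217, 2614 and 3635, 8.08-fold lower (adjusted p = 4.44e-06). miR-322, encoded on the X chromosome and with the seed shown above for miR-15b, read 47.6, 37.7 and 70.7 and 1040.5, 980.1, 673, 1065 and 976, 11.99-fold lower (adjusted p = 2.09e-07).

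The imprinted Dlk1-Dio3 cluster on chromosome 12 holds a large set of miRNAs of embryonic and muscle tissue. Of its 51 probes 17 were tested. By signal 16 of them were lower in aorta and by share 14, beside 75.8% and 62.4% of all tested. None was higher, and the median log2 share difference was -2.73. After median centring 10 were lower and none higher, but quantile normalization gave 2 lower and 2 higher. All aortas were below the limit for 45 of the 51 probes. Most of the 17 were thus tested through fat alone, and their median rests largely on values under the limit in aorta. miR-127 read 65.5, 197, 152, 205 and 151 in fat and miR-154 42.9, 139.7, 97.7, 164 and 77.8. By signal miR-127 was at least 4.81-fold lower in aorta, and the bound for miR-154 was 3.17-fold.

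Members of a seed family went apart between the tissues in a few cases. Of the tested miRNAs, 90 matched a RefSeq mature sequence, and 51 of them fell into 19 seeds with at least 2 members. In 2 of the 19 seeds, members were called in both directions by share. The first is that of miR-193 and miR-193b. miR-193 was below the limit in all aortas and read 24.9, 151, 96.6, 161 and 116 in fat, at least 3.11-fold lower by signal and at least 2.04-fold by share (limma adjusted p = 1.16e-07). miR-193b went the other way, as given above. They are encoded apart, on chromosomes 11 and 16.

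The other is the miR-30 family, known to promote adipogenesis in human cells. miR-30c held 2.46%, 1.74% and 1.94% in aorta and 1.15%, 0.864%, 0.864%, 1.06% and 0.919% in fat and was 2.10-fold higher (limma adjusted p = 0.000878). miR-30a held 0.298%, 0.389% and 0.401% and 0.465%, 0.475%, 0.482%, 0.660% and 0.507%, 1.43-fold lower in aorta (adjusted p = 0.0233). miR-30e held 0.0101%, 0.0125% and 0.0115% and 0.0193%, 0.0199%, 0.0265%, 0.0316% and 0.0398%, 2.28-fold lower (adjusted p = 0.0457). The lower calls were weak. With the replicate block the adjusted p was 0.17 for miR-30a and 0.14 for miR-30e, and without the 5 most abundant miRNAs in the total it was 0.90, with the sign turned, and 0.28. Without aorta replicate 1 it was 0.118 and 0.107.

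miR-10a and miR-10b lie within the bounds of Hox genes, miR-10a in Hoxb3 and miR-10b in Hoxd3 and Hoxd4, and differ by 1 base. miR-10a read 1022, 1259 and 1286 in aorta and 1779.6, 1889.5, 1939, 1767 and 1105 in fat, and its share did not pass (log2 0.12 ± 0.25, limma adjusted p = 0.665). miR-10b read 122, 40.1 and 73.96 and 1022, 747, 737, 864 and 913, with no overlap, and was 7.72-fold lower by share (adjusted p = 4.05e-06).

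The let-7 family, which favours the differentiated state, held 12.7% to 14.5% of the aortic and 13.9% to 20.4% of the fat signal. Of its 9 tested members 7 were lower by signal and 4 by share, beside 75.8% and 62.4% of all tested. None was higher, and the median log2 share difference was -0.52. After median centring 5 were higher and 1 lower, with a median of 0.76. The member with the lowest difference was let-7f, with 726, 849 and 800.4 in aorta and 2711, 5230.1, 5164, 4644 and 5312 in fat (3.72-fold lower by share, limma adjusted p = 9.21e-06). let-7a and let-7c were 3.12-fold and 1.71-fold lower by share (adjusted p = 0.00207 and 0.00268), the latter lost with the replicate block (0.054). let-7d stood at the other end, with 10028, 8568 and 10097 in aorta and 6004, 10609, 12243, 11099 and 10909 in fat. Its signal overlapped, and its share was not called (log2 0.56 ± 0.25, adjusted p = 0.0544).

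The tissue difference on chow was of much the same make-up. On chow 119 of the 165 miRNAs differed by signal (72.1%), 3 higher (1.82%) and 116 lower (70.3%), and 117 by share (70.9%), 17 higher (10.3%) and 100 lower (60.6%). Of the 5 higher by signal on HFD, 4 had the same sign on chow but only 1 was called higher. Of the 125 lower by signal on HFD, 109 were called lower on chow. Of the 103 lower by share, 89 were called lower on chow and 102 had the same sign. Of the 13 higher by share on HFD, all had the same sign on chow and 10 were called. The 3 not called on chow were miR-2141, miR-720 and miR-30c. miR-720 was 6.46% ± 4.92 of the signal in chow aorta (n = 3) and 5.05% ± 3.15 in chow fat (n = 5).

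The difference between diets was tested directly with the interaction contrast. By signal 3 miRNAs passed (1.82%) and by share 4 (2.42%), with 16 and 18 at an unadjusted p under 0.05. By signal they were miR-222 (limma adjusted p = 3.07e-05) and both arms of miR-335 (adjusted p = 0.00814 for the 5p and 0.00052 for the 3p arm), each lower in aorta by a larger margin on HFD than on chow. No aorta of either diet was over the limit for miR-222 or the 3p arm, and neither was any chow fat sample, so the fitted sizes rest on values under the limit. With such values set to the limit, an alternative chosen after seeing the data, the miR-222 difference was -1.06 (log2) and no longer passed (adjusted p = 0.154). That of the 3p arm was -1.01 and passed by signal (adjusted p = 0.0167) but not by share (0.0839). The 5p arm passed on both scales, by -3.73 by signal (adjusted p = 0.000394) and -3.70 by share. miR-221, not called with the values as deposited (adjusted p = 0.356 by signal), passed in that setting, by -3.30 by signal (adjusted p = 7.49e-06). In fat, miR-335-5p read 76.2 to 329 on chow and 1469 to 2354 on HFD. miR-378, a miRNA of oxidative metabolism, passed by share only. Its share was 0.155% ± 0.0193 in HFD aorta and 0.293% ± 0.0466 in HFD fat, against 0.0952% ± 0.0159 and 0.438% ± 0.0419 on chow, so the difference between tissues was smaller on HFD, by 1.29 ± 0.27 (log2, SE, limma adjusted p = 0.0105), a call lost with the replicate block (0.285).

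**Figure D5:**
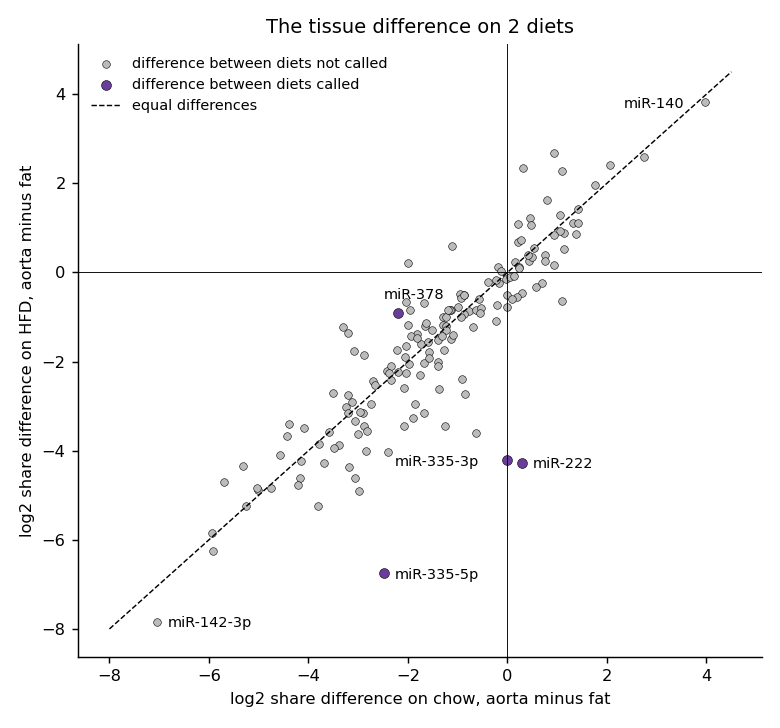
Log2 share difference, aorta minus fat, on HFD (vertical axis) against that on chow (horizontal axis) for the 165 tested miRNAs. The dashed line marks equal differences. The 4 miRNAs whose difference between diets passed at adjusted p under 0.05 are in purple: miR-378 lies above the line, and miR-222 and both arms of miR-335 below it.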

How the data were processed

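Mouse miRNA probes were read in 8 HFD samples, 3 aortas and 5 mesenteric fats, grouped by their titles. The authors deposited 1 table of signal values, and per the labels' protocols total RNA from tissue was adjusted to a common concentration and hybridised with a fluorescent barcode. The low values show that each sample's background was subtracted, that values were set to a floor of 1 and that miRNA values were multiplied by 1 factor per sample, 0.603 to 1.49 in aorta and 0.784 to 1.03 in fat. Not given in the sources used here are the software, how background was defined and what the factor rests on. The values are no counts, so no count test was used. Depth is limited by the signal above background before that factor, 148873 to 435655 in aorta and 344361 to 496456 in fat. The factor was not applied to the negative controls that set the detection limit, so the limit stands for more signal above background where the factor was low.

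log2(value + 1), and log2 of (value + 1) as a percentage of the sample's summed mouse miRNA signal, were fitted with limma 3.58.1 (lmFit and eBayes) in R 4.3.3 over 165 probes above the limit in at least 3 of the 8 samples. The fit held the 16 tissue samples of both diets, which share 1 estimate of the spread, with Benjamini-Hochberg adjustment and calls at an adjusted p under 0.05. The added 1 shrinks the folds of dim miRNAs, but values under the limit can enlarge them. By signal, miR-142-3p was 350-fold lower in aorta as fitted and 51.1-fold with values set to the limit. For miR-107 these were 9.30-fold and 4.03-fold. Totals and probe numbers were compared with exact permutation tests (scipy 1.17.1). The procedure was tested on simulated data.

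Same-numbered HFD aorta and fat samples deviated together from their group means (correlations 0.328, 0.258 and 0.213). HFD pairs of unlike number ranged from -0.268 to 0.233, so the highest of these exceeded the lowest same-numbered value. On chow the same-numbered values were -0.192, -0.117 and -0.0438. Pairing by replicate number was thus read from the data and not from the labels, and remains uncertain. It entered only the replicate block and not the main fit. The result with the replicate block is given where it ends a call.

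Members and lists were chosen with earlier results of these data known. miRNAs were named by rule: up to 8 with the largest called difference in each direction and scale, the 10 most abundant of each tissue, up to 4 of each list with the smallest p by share, the cell type markers and those passing the interaction. Not every miRNA so chosen is described. miR-30a, miR-30c, miR-30e, miR-10a, miR-196a and miR-196b were named after their values were seen, and so were members of the rule's lists shown to contrast a seed or hairpin. Of all probes 9 read several miRNAs. Lists with counts but no named member here were the miR-125/99/100 group (4 of 7 lower by signal, 3 by share, median log2 share difference -0.18), the miR-181 family (2 and 1 of 2, -0.45) and the Sfmbt2 cluster (0 of 3 on both scales, 0.58). Of all tested, 75.8% were lower by signal and 62.4% by share.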

Additional observations from a re-analysis of the deposited data

Results flagged for a closer look

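In HFD fat, 5 of 109 sets of 5 values held 1 sample standing apart by Dixon's criterion (0.71), where chance gives about 1 in 20. Fat replicate 2 stood above the others in miR-451, with a signal of 57354 and a share of 11.5%, and in the share of miR-486, 0.456%. Fat replicate 3 was low in miR-322, at 673, and fat replicate 4 was high in the share of miR-30a, at 0.660%.

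The tissue difference departed from that on chow for 4 miRNAs by the interaction test. On the log2 signal scale miR-222 differed by -4.59, miR-335-3p by -4.24 and miR-335-5p by -4.30. As shares the values were -4.56, -4.21 and -4.27, and miR-378 differed by 1.29. The sizes for miR-222 and miR-335-3p rest on values under the detection limit in the aortas and in chow fat. With such values set to the limit they were -1.06 and -1.01 by signal, and the miR-222 difference no longer passed (limma adjusted p = 0.154). For miR-335-5p, below the limit in the HFD aortas, it was -3.73.

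The table also holds 4 mouse mRNA probes, which entered no comparison. Their lowest values over the 8 HFD samples were 4471 for Actb, 555 for B2m, 164 for Gapdh and 509 for Rpl19. B2m, part of the class I complex on nucleated cells, read 555 to 1206 in aorta and 7162 to 9989 in fat, a gap without overlap. Rpl19 did not overlap either, at 509 to 1092 in aorta and 1453 to 2079 in fat, while Actb and Gapdh did.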

How the results depend on the processing

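The count by signal ranged from 121 to 133 when single samples were left out and that by share from 107 to 122. Pairing by replicate number (the replicate block) gave 121 by signal (7 higher, 114 lower) and 104 by share (15 and 89). Scaling to the ligation controls, chosen after seeing the data, gave 76 by signal. Without a filter the share count was 362 (238 higher, 124 lower), since probes at the floor in every sample have equal signal and so a larger share of the smaller aortic total. Leaving the 5 most abundant miRNAs of each tissue out of the total gave 31 higher and 78 lower, and setting values under the limit to it 82 lower by share. The interaction count was 3 to 6 without single samples, 5 without chow fat replicate 5 and 6 without chow aorta replicate 1. The difference of log2 totals lay between -0.685 and -0.508 and that of probe numbers between -65.1 and -57.6, with p of 0.0571 or 0.0952, the smallest such designs allow. The sign turned for miR-30a (0.034) and miR-29c (0.34) without the 5 most abundant, and for miR-10a (-0.030) and miR-29c (0.023) with the replicate block. Values near the limit are known least well.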

Other observations

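miR-196a and miR-196b, both encoded in Hox clusters, were on or off among the HFD fat samples. miR-196a read 95.3 and 141 in fat replicates 1 and 5 and 1.00, 1.03 and 4.32 in replicates 2, 3 and 4. miR-196b read 48.3 and 104 in the former and 1.00, 1.03 and 1.00 in the latter. Fat replicates 1 and 5 were also the samples with the lowest miR-145 shares and the highest miR-150 signal. In the 3 aortas miR-196a read 164, 16.6 and 26.9. Neither passed by share between the tissues (limma adjusted p = 0.20 and 0.15).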
